A study of Bos taurus with 6 samples.

Results

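The genes described here handle fatty acids in bovine granulosa cells (GC), the cells that surround the oocyte and line the ovarian follicle. They take fatty acids up, make them, store them as triacylglycerol or burn them. In all 49 genes were chosen by name, the PPAR receptors and 6 subunits of AMP-activated protein kinase (AMPK) included. Members are the transcript clusters, the array's unit for a gene, whose gene symbol in the deposited table equals one of these names. All 49 symbols were found, in 50 of the 26773 transcript clusters, because SCD has a pair of them. The study asked how plating density alters the GC transcriptome, and compared 3 cultures of primary GC plated at normal density with 3 plated at high density, each on 1 Bovine Gene 1.0 ST Array. All 6 cultures were kept serum-free for 9 days in α-MEM with FSH, IGF-1 and androstenedione, and the labels give no difference between the groups other than the number of cells plated per well. Per the methods, the cells came from small to medium-sized follicles of slaughtered cows of unknown cycle stage and were pooled over many follicles and ovaries before freezing, so a culture stands for a pool and not for an animal. Whether normal and high density cultures were set up from the same pools is not given in the sources used here.

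As background, cells obtain fatty acids from lipoproteins, with the help of lipoprotein lipase (LPL) and the receptor VLDLR, or make them from citrate through ACLY, ACACA and FASN. Acyl-CoA synthetases trap fatty acids inside the cell, desaturases and elongases reshape them, and GPAM, AGPAT2, LPIN1 and the DGAT enzymes build triacylglycerol, which perilipins coat in lipid droplets and PNPLA2, LIPE and MGLL break down again. For oxidation, long chains enter mitochondria through CPT1, the carnitine carrier SLC25A20 and CPT2, and are then shortened by acyl-CoA dehydrogenases and the trifunctional protein. AMPK senses low energy, restrains the carboxylases ACACA and ACACB and so relieves CPT1, and PPAR receptors switch on many of these genes. GC oxidize fatty acids in the growing follicle, and luteal cells are rich in lipid droplets.

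Signals are RMA values on the log2 scale, and a change is the log2 fold change, high minus normal density, with its standard error (SE) from limma. A transcript cluster is called when the fold change exceeds 1.5 in size (0.58 on the log2 scale) and the p-value and the Benjamini-Hochberg adjusted p over the whole table are below 0.05. The 95th percentile of the 82 reporter control rows, 4.62, served as the background level. Of the 50 member transcript clusters 44 had a group mean above it, and those of FABP4, ACSL5, ACACB, AGPAT2, DGAT2 and MGLL did not. High density replicate 2 stood apart from its group. The median gap between a culture and the mean of the other cultures of its group was 0.16 for this replicate, 0.11 and 0.12 for the other high density cultures and 0.081 to 0.082 at normal density. Over the members alone the gaps were 0.14 for high density replicate 2 and 0.060 and 0.088 for the other high density cultures. Of 10 granulosa markers 9 were above background in each group. FOXL2, FSHR, INHA, INHBA, FST and CYP19A1 fell, and HSD17B1 rose at least 1.78-fold from below background. FOXL2 went from 7.94 ± 0.11 to 7.29 ± 0.15 (mean ± SD, n = 3) and CYP19A1 from 6.51 ± 0.21 to 3.71 ± 0.23, below background. AMH, GATA4 and NR5A2 were not called, with changes of −0.18, 0.12 and 0.41. That of NR5A2 passed the FDR threshold (limma adjusted p = 0.00482). In these bulk cultures fewer cells of a type and less RNA per cell cannot be told apart.

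At high density 11 of the 50 member transcript clusters were called, 22% against 7.49% of all transcript clusters. Of these 9 rose, where 3.97% of the table did, and CD36 and CPT1A fell, where 3.51% of the table did. Among transcript clusters above background in at least 1 group the share was 25% of the 44 members and 12.8% of the table. The members were chosen with earlier results of these data known, which limits the comparison of these shares. The rises were those of LPL, FABP3, FABP5 and ACSL1 in uptake, ACLY and FASN in synthesis, LPIN1 and LIPE in storage and lipolysis, and CPT1B in oxidation. No PPAR receptor and none of the 6 AMPK subunits among the members was called. The gamma subunit PRKAG3, which is not a member, is described with the further genes. The median change of the members was 0.068, and that of all transcript clusters 0.018, while the median size of a change was 0.33 and 0.15. At any fold, 16 members were higher and 10 lower past the FDR threshold, which 19.1% of the table passed. In 39 member transcript clusters, 78%, the groups did not overlap, which held for 37.3% of the table. With both restricted to transcript clusters above background in a group, this held for 84.1% of the 44 members and 54.8% of the table. The median size of a change was then 0.34 in these members and 0.21 in all such transcript clusters. Of these members 14 were higher and 10 lower past the FDR threshold, against 1749 and 2422 of the 13077 such transcript clusters. All 11 calls were made with any single culture left out, with the methods' t-test, with the replicate number as a block and under both other scalings. A pair of stricter tests kept fewer. With the methods' t-test in its unequal-variance form LPL, FABP3, ACLY, FASN and LPIN1 were called, and CD36, FABP5, ACSL1, LIPE, CPT1A and CPT1B were not. With limma's treat, which tests against the fold change threshold itself, LPL, FABP5, LPIN1 and CPT1A were called, and CD36, FABP3, ACSL1, ACLY, FASN, LIPE and CPT1B were not. The changes by branch are plotted next.

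**Figure D1:**
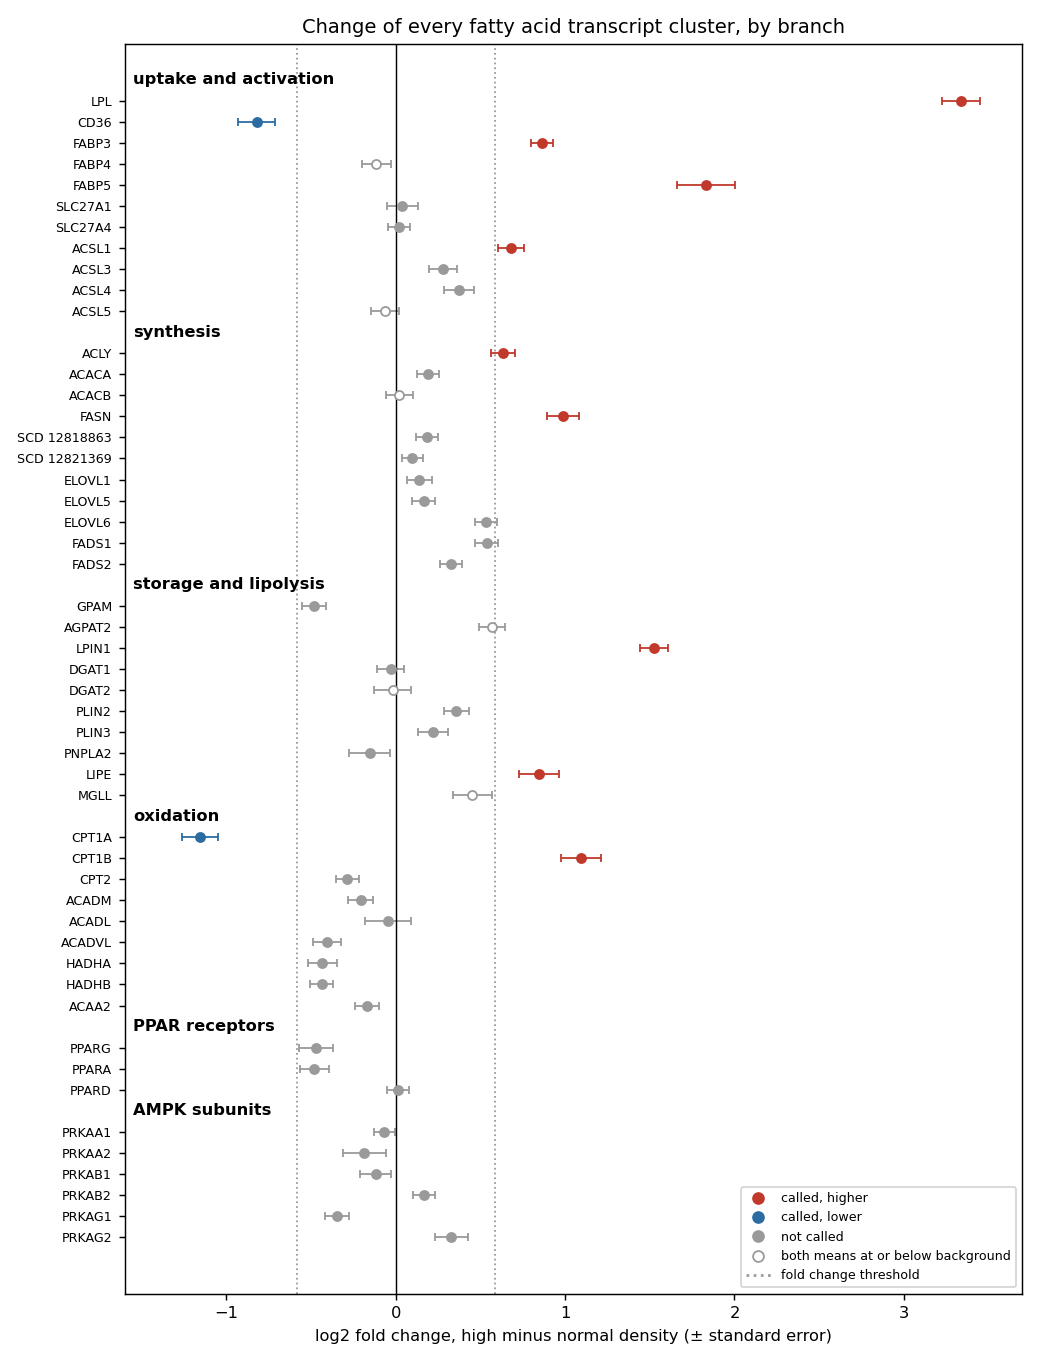
Log2 fold change, high minus normal density, of the 50 member transcript clusters (points) with the standard error from limma (bars), grouped by branch on the vertical axis. Red points rose and blue points fell past the thresholds, open points had both group means at or below background, and dotted lines mark a fold change of 1.5. LPL lay farthest right at 3.34, all synthesis points lay at or right of 0.02, and 8 of 9 oxidation points lay left of 0.

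The largest change was that of LPL (transcript cluster 12889017), the enzyme that frees fatty acids from circulating lipoproteins. Its signals were 6.81, 6.91 and 6.50 in the normal density cultures and 10.12, 10.09 and 10.03 in the high density cultures. Every high density culture was more than 3 log2 units above every normal density culture, and the spread at high density was the smaller one. The change was 3.34 (SE 0.11, limma adjusted p = 1.07e-05), a 10.1-fold rise. LPL is also a gene of macrophages and adipocytes. All 11 leukocyte markers, among them PTPRC, CD68 and CD14, had means at or below background in both groups, with mean list levels of 3.09 to 3.11 at normal and 3.04 to 3.24 at high density. Of the adipocyte markers ADIPOQ, LEP, PLIN1, CIDEC and LGALS12 were below background in both groups, and RBP4 and ADIPOR2 were above it. None of the 11 leukocyte and 7 adipocyte markers was called by limma or by the methods' t-test. Unadjusted limma p was below 0.05 for PTPRC, CD14 and RBP4, and for 8645 of the 26773 transcript clusters. CD14 changed by 0.41 and PTPRC by −0.22, both without overlap and below background. RBP4 was higher at high density without overlap, by 0.50, and passed the FDR threshold (limma adjusted p = 0.00203) but not the fold change threshold. The part of macrophages or adipocytes in the change of LPL was not tested.

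CD36 (12852910), a surface receptor that passes fatty acids and oxidized lipoproteins into the cell, moved the other way. At normal density it was measured at 8.50, 8.48 and 8.63, and at high density at 7.52, 7.92 and 7.70. The groups did not overlap, and high density replicate 2 was the culture nearest to the normal density group. The change was −0.82 (SE 0.11, limma adjusted p = 0.00236), a 1.77-fold fall. The members of the SLC27 family of fatty acid transporters, SLC27A1 and SLC27A4, did not pass the test, and their 95% intervals, −0.17 to 0.25 and −0.13 to 0.17 on the log2 scale, lay within the fold change threshold.

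Inside the cell, fatty acids travel on small binding proteins. FABP3 (12774529), the heart-type binding protein, had signals of 9.60, 9.61 and 9.62 at normal and 10.44, 10.47 and 10.52 at high density. The cultures of each group lay close together and the groups were 0.86 apart (SE 0.064, limma adjusted p = 0.000172), a 1.82-fold rise. FABP5 (12721605), the epidermal type that many tissues use, was just above background at normal density, with 4.996, 4.88 and 5.01, and reached 6.80, 7.16 and 6.43 at high density. This 3.56-fold rise, 1.83 on the log2 scale (SE 0.17, limma adjusted p = 0.00045), had the widest spread of any member, an SD of 0.36 at high density. FABP4 (12724247), the adipocyte and macrophage type, was far below background in every culture, at 1.57, 1.58 and 1.61 at normal and 1.46, 1.33 and 1.62 at high density, and was not called (limma adjusted p = 0.422).

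Of the acyl-CoA synthetases, which activate fatty acids for every later use, ACSL1 (12825420) was called. Its signals were 6.76, 6.75 and 6.80 at normal and 7.37, 7.42 and 7.56 at high density, a rise of 0.68 (SE 0.076, limma adjusted p = 0.000964). ACSL4 (12909544), which prefers arachidonic acid, was measured at 9.62, 9.58 and 9.55 at normal and 9.90, 10.11 and 9.85 at high density. Its groups did not overlap and its change of 0.37 passed the FDR threshold (limma adjusted p = 0.0223), but not the fold change threshold. ACSL3 (12773837), a synthetase of the endoplasmic reticulum and lipid droplets, was measured at 9.17, 9.09 and 9.12 at normal and 9.28, 9.52 and 9.41 at high density, a change of 0.28 with limma adjusted p = 0.0538. ACSL5 (12819631), a synthetase of mitochondria and the endoplasmic reticulum, was measured at 2.10, 2.05 and 2.21 at normal and 2.10, 1.94 and 2.14 at high density, below background throughout.

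**Figure D2:**
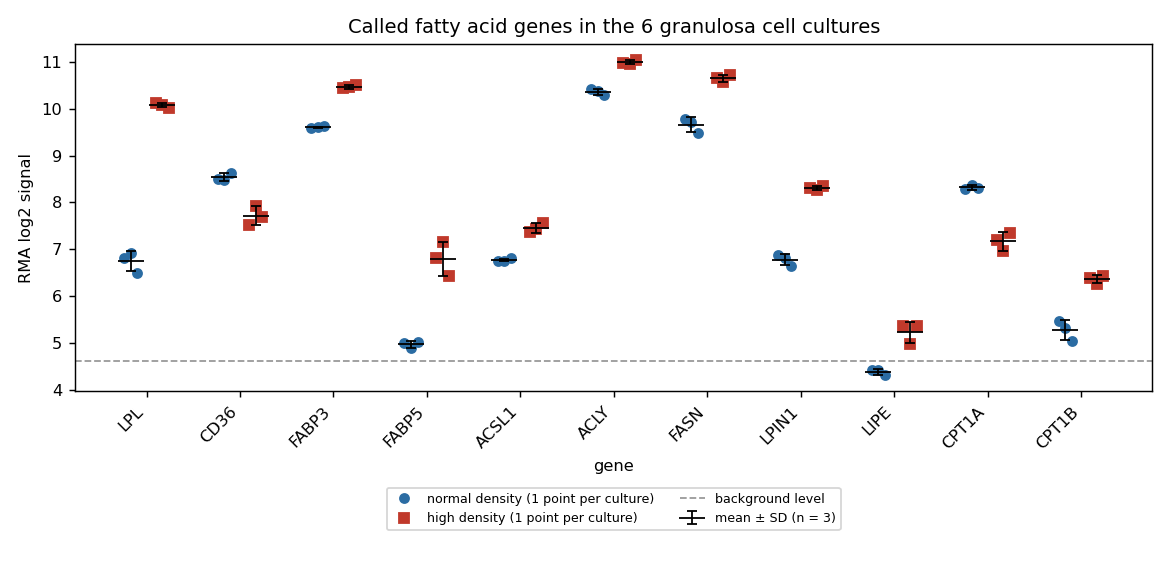
RMA log2 signals of the 11 called members in each culture (blue circles, normal density; red squares, high density; 1 point per culture), with the mean and SD of each group (black, n = 3) and the background level of 4.62 (dashed). No high density culture overlapped the normal density group in any of these genes, CD36 and CPT1A fell, and the normal density mean of LIPE lay below background.

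Lipogenesis starts with ACLY (12769528), which splits exported citrate into acetyl-CoA. It rose from 10.42, 10.38 and 10.29 at normal to 10.99, 10.96 and 11.05 at high density, by 0.63 (SE 0.071, limma adjusted p = 0.000982). The groups were clear of each other, and the fold of 1.55 was just past the threshold. FASN (12760706), the synthase that assembles palmitate, rose more, from 9.78, 9.73 and 9.49 to 10.67, 10.57 and 10.72. With 0.99 (SE 0.095, limma adjusted p = 0.000527) this was a 1.98-fold difference, and normal density replicate 3 was the lowest culture. The step between ACLY and FASN, the carboxylase ACACA, changed by 0.19 (95% interval 0.036 to 0.35, limma adjusted p = 0.0896) and was not called, while ACACB, the form that sits at mitochondria and restrains CPT1, was below background with means of 2.80 and 2.82.

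None of the members that finish and reshape fatty acids was called. SCD, which introduces the first double bond, is on the array as a RefSeq and as an Ensembl transcript. The RefSeq one (12821369) had signals of 11.67, 11.64 and 11.67 at normal and 11.76, 11.76 and 11.76 at high density. The Ensembl one (12818863) gave 10.98, 10.98 and 11.07 at normal and 11.21, 11.21 and 11.17 at high density. Neither was called (limma adjusted p = 0.332 and 0.102), although the groups did not overlap in either, and the RefSeq one lay close to the highest signal of an array, which was between 12.16 and 12.28. ELOVL6 (12871633), which lengthens palmitate to stearate, changed by 0.53 (limma adjusted p = 0.00129), and FADS1 (12834425), the delta-5 desaturase, by 0.54 (limma adjusted p = 0.00156). Both passed the FDR threshold and stayed just under the fold change threshold, as did the delta-6 desaturase FADS2 (12831035) with 0.33 (limma adjusted p = 0.0112). ELOVL1 and ELOVL5 changed by 0.14 and 0.17 and passed neither. All 11 transcript clusters of this branch had a positive sign, as had 5564 of the 13077 in the table above background. ACACB turned negative when each array was shifted to the same median or normalized by quantiles again, and without high density replicate 3.

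Among the members of triacylglycerol assembly 1 was called. LPIN1 (12707198), the phosphatidic acid phosphatase lipin-1 that also acts as a transcriptional coactivator, had signals of 6.89, 6.80 and 6.65 at normal and 8.30, 8.26 and 8.34 at high density. The cultures of each group lay close together and the groups were 1.52 apart (SE 0.082, limma adjusted p = 4.52e-05), a 2.88-fold rise. GPAM (12821591), the mitochondrial acyltransferase of the first step, was lower in all high density cultures, with a change of −0.48 (limma adjusted p = 0.00347) that missed the fold change threshold. AGPAT2, the acyltransferase of the next step, changed by 0.57 (limma adjusted p = 0.00201) between means of 3.37 and 3.94, both below background, and was called without high density replicate 3, when its change was 0.62. DGAT1 and DGAT2, the enzymes of the last step, had 95% intervals of −0.21 to 0.16 and −0.27 to 0.24.

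The lipid droplet coat protein PLIN2 (12889041) gave signals of 10.05, 9.93 and 9.86 at normal and 10.26, 10.35 and 10.32 at high density. The groups did not overlap, and the change of 0.36 passed the FDR threshold (limma adjusted p = 0.0161) but not the fold change threshold. Its relative PLIN3 changed by 0.22 (limma adjusted p = 0.14).

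In lipolysis LIPE (12749602), hormone-sensitive lipase, which in steroidogenic cells also frees cholesterol from its esters, was measured at 4.41, 4.41 and 4.30 at normal and 5.35, 4.96 and 5.36 at high density. The normal density cultures were below background, and high density replicate 2 was the lowest of its group. Its change was 0.85 (SE 0.12, limma adjusted p = 0.00259), and against the background level the rise was at least 1.52-fold. PNPLA2 (12833317), the lipase that starts the breakdown of triacylglycerol, had 6.98, 6.97 and 6.87 at normal and 6.92, 6.51 and 6.92 at high density, with high density replicate 2 again lowest, and was not called (limma adjusted p = 0.436). MGLL (12794639), which completes it, was measured at 4.24, 3.92 and 4.26 at normal and 4.70, 4.46 and 4.62 at high density, with means below background and a change of 0.45 (limma adjusted p = 0.0305) under the fold change threshold.

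The gate of mitochondrial oxidation changed its isoforms in opposite directions. CPT1A (12833215), the liver-type carnitine palmitoyltransferase, fell from 8.28, 8.37 and 8.32 at normal density to 7.19, 6.96 and 7.36 at high density. CPT1B (12865096), the muscle type, rose from 5.46, 5.31 and 5.04 to 6.39, 6.26 and 6.44. No culture of one density came within the range of the other for either gene, and both were above background in both groups. The changes were −1.15 (SE 0.11, limma adjusted p = 0.000444) for CPT1A and 1.09 (SE 0.12, limma adjusted p = 0.000825) for CPT1B, folds of 2.23 and 2.14 in size. Per culture, the difference between the isoforms shifted by −2.25 (SE 0.15, p = 0.1 in an exact, two-sided permutation test, which cannot give a lower p with 3 cultures a group). Both calls were lost with the methods' t-test in its unequal-variance form (adjusted p = 0.078 for CPT1A and 0.0705 for CPT1B), and that of CPT1B also with limma's treat (adjusted p = 0.07).

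Downstream of this gate the changes were small and mostly negative. CPT2, HADHA, HADHB and ACADVL passed the FDR threshold with changes of −0.29, −0.43, −0.44 and −0.40 (limma adjusted p = 0.0254, 0.0128, 0.00468 and 0.0144), all under the fold change threshold. HADHB (12703912), the thiolase subunit of the trifunctional protein, was measured at 9.53, 9.63 and 9.61 at normal and 9.15, 9.21 and 9.10 at high density, with clear separation. Its partner subunit HADHA differed from it in change by 0.0042 (SE 0.071). The medium-chain dehydrogenase ACADM and the thiolase ACAA2 changed by −0.21 and −0.17 and did not pass the FDR threshold (limma adjusted p = 0.0946 and 0.138). The long-chain dehydrogenase ACADL, at −0.046, overlapped between the groups and turned positive when either normal density replicate 3 or high density replicate 1 was left out. In every scaling 8 of the 9 genes had a negative sign, CPT1B being the exception. Among all transcript clusters above background in a group 7513 of 13077 had a negative sign.

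By position, 2 pairs of members lie next to each other in the gene order of RefSeq (assembly ARS-UCD2.0), which holds all 49 symbols. These are HADHB with HADHA, at −0.44 and −0.43, and FADS1 with FADS2, at 0.54 and 0.33. In both pairs the neighbours had the same sign.

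Of the PPAR receptors, which bind fatty acids and activate their target genes, none was called by limma or by the methods' t-test. Unadjusted limma p was below 0.05 for 2 of 3, and for 6320 of the 13077 transcript clusters above background in a group. PPARG (12797985), the receptor of adipocyte differentiation that GC also express, was measured at 7.25, 7.24 and 7.33 at normal and 6.75, 6.999 and 6.66 at high density. Its groups did not overlap, and its change of −0.47 (limma adjusted p = 0.0165) passed the FDR threshold only. PPARA, the receptor that drives oxidation genes in liver, changed by −0.48 (limma adjusted p = 0.00903), within 0.011 of PPARG. PPARD changed by 0.014, with a 95% interval of −0.14 to 0.17.

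All 6 AMPK subunits of the list were above background in both groups, and 0 were called by limma or by the methods' t-test. An unadjusted limma p below 0.05 was found for 3 of them, and for 6320 of the 13077 transcript clusters above background in a group. The catalytic subunits PRKAA1 and PRKAA2 changed by −0.067 and −0.18 (95% intervals −0.22 to 0.081 and −0.48 to 0.11). The scaffold subunits PRKAB1 and PRKAB2 changed by −0.12 and 0.17 (95% intervals −0.33 to 0.09 and 0.015 to 0.32). Among the gamma subunits, which bind AMP, PRKAG1 (12857146) was measured at 8.77, 8.82 and 8.88 at normal and 8.43, 8.51 and 8.49 at high density. It passed the FDR threshold with −0.35 (limma adjusted p = 0.0122), while PRKAG2 had 0.33 (limma adjusted p = 0.0547). The phosphorylation of AMPK, on which its activity depends, is not measured by an array.

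Whether related genes changed by different amounts was examined in 30 pairs of members of a family or of successive enzymes. In each culture the difference of both signals was taken and compared between the densities with a two-sided exact permutation test. In 18 pairs, 60%, the differences did not overlap between the groups. Each had p = 0.1 by this exact test and 0.167 after adjustment over the 30 pairs. No pair can therefore pass a threshold of 0.05 in this design. Single transcript clusters did not overlap in 37.3% of the table and 54.8% of the table above background, and no such share is given for other pairs. In 7 of the 18 pairs the shift was also larger than a fold of 1.5. The largest was that of CPT1A and CPT1B. The shift was −0.97 (SE 0.23) for FABP3 minus FABP5, −1.95 (SE 0.30) for FABP4 minus FABP5, 0.98 (SE 0.070) for FABP3 minus FABP4 and 0.74 (SE 0.070) for ACSL1 minus ACSL5. FABP4 and ACSL5 were below background, so the shifts that involve them rest on the signal of the partner gene. PNPLA2 minus LIPE shifted by −1.001 with an SE of 0.0072, and the normal density mean of LIPE was below background, which limits both values. Both genes were lowest in high density replicate 2 among the high density cultures. For the AMPK gamma subunits PRKAG1 and PRKAG2 the shift was −0.67 (SE 0.11).

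**Figure D3:**
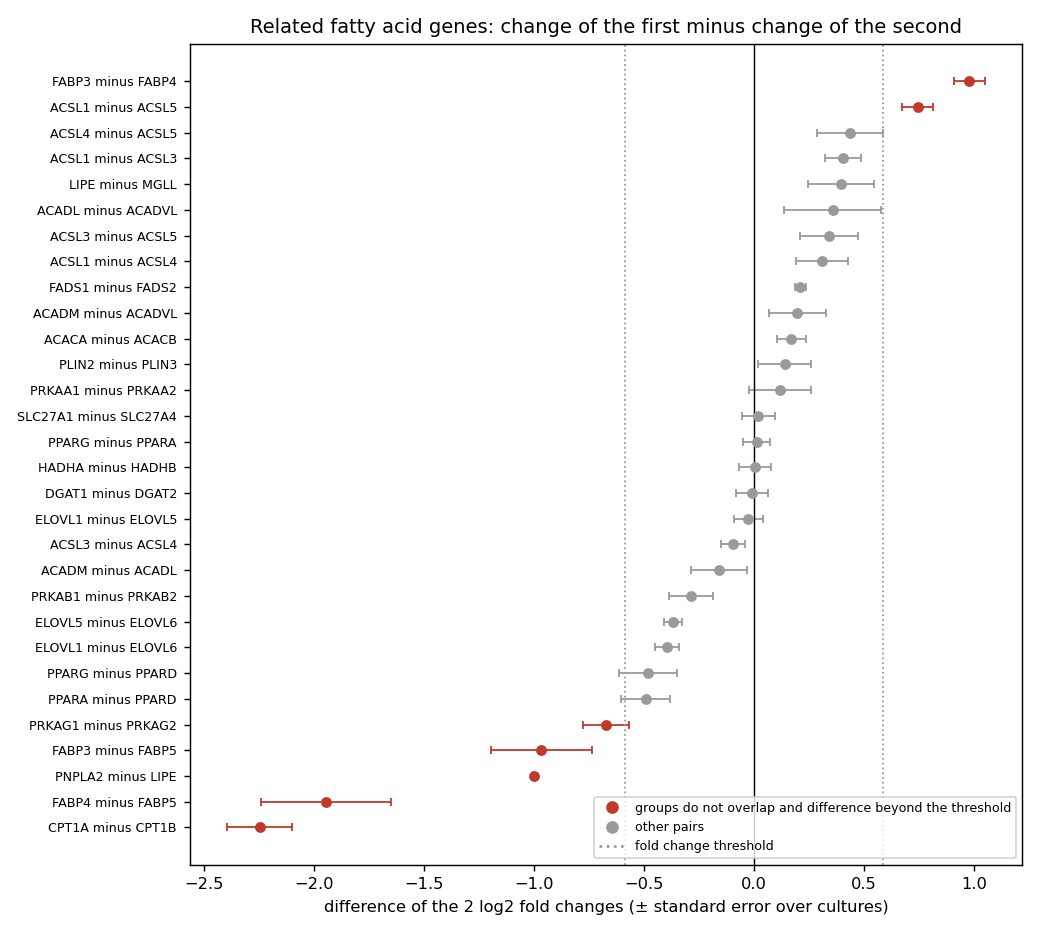
Difference of the log2 fold changes of 2 related members (first minus second gene, points) with the standard error over cultures (bars) for 30 pairs. Red points are the 7 pairs whose groups did not overlap and whose difference exceeded a fold of 1.5 (dotted lines), and CPT1A minus CPT1B lay farthest from 0 at −2.25.

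A further 126 genes of the same processes, in 129 transcript clusters, were examined beside the members. Of these transcript clusters 17 rose and 5 fell, 17.1% in all, where 7.49% of the table and 12.8% of the table above background was called, and 93 of the 129 were above background. Their median change was 0.056. These genes were chosen with earlier results of these data known, which limits the comparison of these shares.

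Around uptake, 2 of 19 transcript clusters rose and ACSL6 fell, 15.8% in all, and of 13 PPAR partners and targets ANGPTL4 and UCP2 rose and 0 fell, 15.4%. The share called was 7.49% in the table and 12.8% in the table above background. Above background in a group were 7 of the 19 and 9 of the 13. VLDLR, the lipoprotein receptor that works with LPL, rose from 7.71, 7.76 and 7.68 at normal to 9.31, 9.39 and 9.32 at high density. This was a 3.09-fold difference (1.63, SE 0.066, limma adjusted p = 1.78e-05), with no overlap. ANGPTL4, a secreted inhibitor of LPL and a PPAR target, rose from 4.80, 5.11 and 4.92 to 6.55, 6.25 and 6.42 (1.46, SE 0.11, limma adjusted p = 0.000184). FABP7, the brain-type binding protein, went from 3.94, 4.19 and 4.04, below background, to 6.24, 6.20 and 6.64, a rise of at least 3.34-fold (limma adjusted p = 5.67e-05). GPIHBP1, which anchors LPL on capillary endothelium, had means of 4.47 and 4.616, both below background, and was not called. Among the 9 endothelial markers VWF and CLDN5 were above background in both groups. The others, PECAM1, CDH5, TIE1, ESAM and EMCN among them, were below it in both groups. Only CLDN5 was called, with a rise of 2.81. The list mean was 3.27 to 3.32 at normal and 3.63 to 3.68 at high density, but the median change was 0.10. KDR and TEK passed the FDR threshold with 0.48 and −0.36 (limma adjusted p = 0.0275 and 0.0303), both below background. VWF, above background, changed by 0.31 (limma adjusted p = 0.0572). The part of endothelial cells in the rises of uptake genes was not tested. The acyl-CoA synthetase ACSL6 fell by 1.03 on the log2 scale (limma adjusted p = 0.000304).

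Around synthesis, 5 of 24 transcript clusters rose and 0 fell, 20.8% in all. Of all transcript clusters 3.97% rose, and of those above background in a group 12.8% were called in either direction. Above background in a group were 19 of the 24. ACSS2, which makes cytosolic acetyl-CoA from acetate, the main lipogenic carbon source of ruminants, went from 10.36, 10.29 and 10.18 to 10.99, 10.97 and 11.03 (0.72, SE 0.073, limma adjusted p = 0.000662), and no culture overlapped. Its mitochondrial relative ACSS1 rose at least 1.51-fold from a mean below background (limma adjusted p = 0.000923), and HSD17B12, the ketoreductase of fatty acid elongation, by 0.71 (limma adjusted p = 0.000495). The calls of ELOVL4 and FADS6, with rises of 0.61 and 0.62 (limma adjusted p = 0.0262 and 0.0232), were lost in most fits that left out a culture. These rises passed neither the methods' t-test nor the fold change threshold with arrays shifted to the same median. Without normal density replicate 2 or 3 both rises stayed past the fold change threshold and missed the FDR threshold. ELOVL4 was not called without high density replicate 2, when its change was 0.43, or without any of the normal density cultures (0.58 to 0.64). Of the 6 fits that each leave out a culture, FADS6 was called in the one without high density replicate 2, and its change in the others was 0.50 to 0.65. SREBF1, the transcription factor that drives lipogenic genes, changed by 0.42 (limma adjusted p = 0.0456) and did not reach the fold change threshold.

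Around storage and lipolysis, 6 of 30 transcript clusters rose and 0 fell, 20% in all. Of all transcript clusters 3.97% rose, and of those above background in a group 12.8% were called in either direction. Above background in a group were 17 of the 30. HILPDA and G0S2, small proteins that both inhibit PNPLA2, rose by 1.07 and 0.63 (limma adjusted p = 0.00013 and 0.00166). Signals of HILPDA were 5.68, 5.76 and 5.72 at normal and 6.77, 6.89 and 6.72 at high density, without overlap. ABHD5, the activator of PNPLA2, changed by −0.15 (95% interval −0.34 to 0.052) and was not called. The acyltransferase AGPAT5, the monoacylglycerol hydrolase ABHD12 and the droplet protein CIDEB rose by 0.64, 0.70 and 0.80 (limma adjusted p = 0.00304, 0.000887 and 0.00237), CIDEB, by at least 1.35-fold, from a mean below background. PNPLA3 was called with 0.66 (limma adjusted p = 0.00821), but its means of 3.90 and 4.56 were both below background, and it was not called by the methods' t-test (adjusted p = 0.0594). Calls were lost for AGPAT5 without high density replicate 2 (0.55), for G0S2 without normal density replicate 3 (0.58) and for PNPLA3 without high density replicate 3 (0.58).

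Around oxidation, 2 of 31 transcript clusters rose and 2 fell, 12.9% where 12.8% of the table above background was called, and 29 of the 31 were above background. SLC25A20, the carrier that moves acylcarnitines between CPT1 and CPT2, fell from 6.20, 6.26 and 6.24 to 5.38, 5.29 and 5.25 (−0.92, SE 0.069, limma adjusted p = 0.000176). The groups were far apart compared with their spread. EHHADH, the bifunctional enzyme of peroxisomes, fell by 0.88 on the log2 scale (limma adjusted p = 0.00181) to a mean below background, at least 1.41-fold. ECI1, an isomerase for unsaturated chains, and ACAD10, a dehydrogenase of the acyl-CoA family, rose by 0.64 and 0.72 (limma adjusted p = 0.0017 and 0.00144), and ECI1 was not called without high density replicate 1 (0.58). In this list 22 of 31 transcript clusters had a negative sign, with a median of −0.16. Of the table above background 7513 of 13077 were negative, with a median of −0.055. UCP2, a mitochondrial carrier and PPAR target, rose by 0.80 (limma adjusted p = 0.000332).

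Among the AMPK kinases and the remaining gamma subunit, 2 of 12 genes fell and 0 rose, 16.7% where 3.51% of the table fell and 12.8% of the table above background was called in either direction. PRKAG3, the gamma subunit best known from skeletal muscle, fell from 7.26, 7.35 and 7.45 to 6.16, 6.12 and 5.90 (−1.29, SE 0.094, limma adjusted p = 0.000162), a 2.45-fold difference without overlap. CAMKK2, the calcium-dependent kinase that activates AMPK, fell from 7.49, 7.50 and 7.48 to 6.56, 6.70 and 6.64 (−0.85, SE 0.069, limma adjusted p = 0.000243). The other 10 genes of this list, STK11 among them, were not called.

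**Figure D4:**
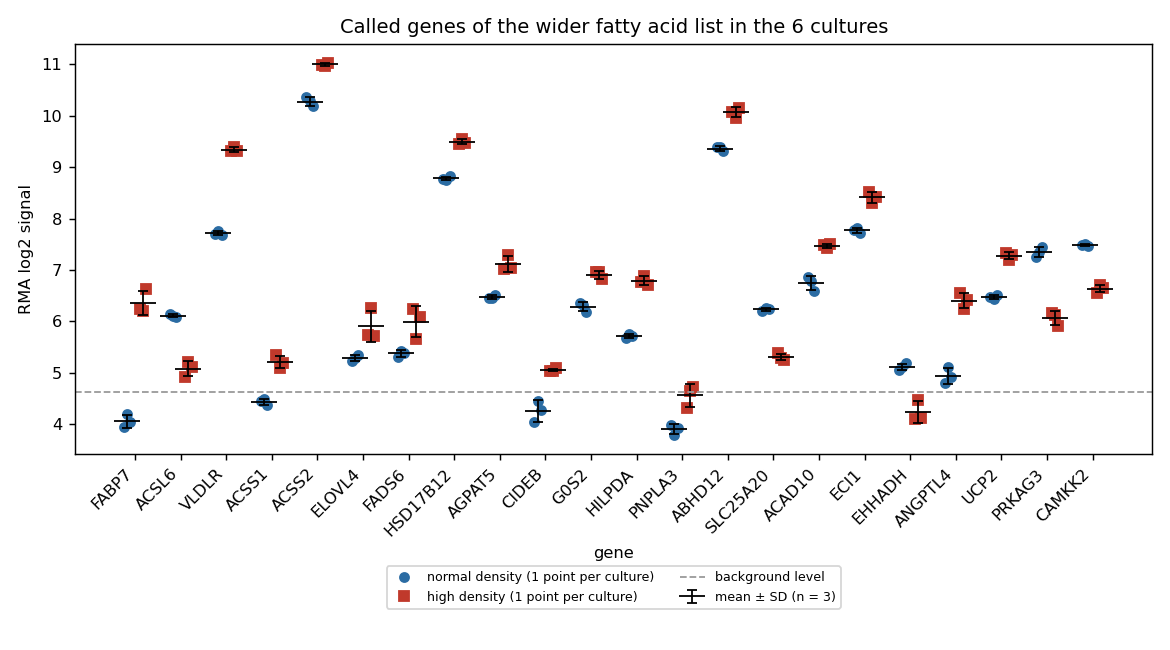
RMA log2 signals of the 22 called transcript clusters among the further fatty acid genes in each culture (blue circles, normal density; red squares, high density), with the mean and SD of each group (black, n = 3) and the background level of 4.62 (dashed). VLDLR, ANGPTL4 and FABP7 showed the largest rises and PRKAG3, ACSL6 and SLC25A20 the largest falls.

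Some markers of other cells moved with density as well. The list mean of 9 stroma and smooth muscle genes was 7.12 to 7.21 at normal and 7.51 to 7.60 at high density, with PDGFRB, COL1A1 and ACTA2 called higher by 0.94, 1.15 and 1.15 and MYH11 called lower, with both means below background. That of 6 theca genes was 4.94 to 5.01 and 5.19 to 5.27, with INSL3 called higher by 1.82, STAR at −0.49 without overlap (limma adjusted p = 0.0105, under the fold change threshold) and the defining theca gene CYP17A1 below background in both groups. Of 7 red blood cell genes HBA was called, at least 27-fold higher from a normal density mean below background, and the other genes were below background in both groups, with list means of 2.85 to 2.88 and 3.68 to 3.92. The median change was 0.32 in the stroma and smooth muscle list, 0.024 in the theca list and 0.079 in the red blood cell list. The higher list means of the theca and red blood cell genes rested mainly on INSL3 and HBA. The part of these other cells in the changes of the fatty acid genes was not tested.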

How the data were processed

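RNA from 6 GC cultures, 3 per density, was hybridized to 1 array each. The authors processed the scans in Expression Console with RMA, and the deposited values are log2 signals per transcript cluster, already background corrected, normalized and summarized. The genome build is not given in the sources used here. All 26773 transcript clusters, 82 of them reporter controls, entered the fits, and 0 columns belonged to other samples. Array medians were 4.34 to 4.43. The arrays give no depth, and their number limits the precision.

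Densities were compared with limma 3.58.1 in R 4.3.3 (lmFit, eBayes, no covariates) and Benjamini-Hochberg adjustment over the table. The methods name an analysis of variance, which was run as the methods' t-test. Alternatives were its Welch (unequal-variance) version, array weights, robust and trended eBayes variances, a block for the replicate number, shifting arrays to the same median, a second quantile normalization, a filter at the background level, limma's treat, an FDR of 0.01 and leaving out each culture. A lower bound on a fold takes the background level for a mean below it. The scripts were tested on simulated data. P-values measure only the spread between these cultures, which may be technical. Plots were made with matplotlib 3.10.9.

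Members and lists were chosen with earlier results of these data known. Described with all values were called members, the member with the highest mean signal in each branch and listed partners of called members. Every called gene of the further list and of the marker lists is named, and every member is accounted for. GPIHBP1, SREBF1, ABHD5, STK11 and the uncalled markers were chosen after their values were seen. Same-numbered cultures did not deviate together (correlations −0.046 to 0.046), so the numbers were not taken as pairs. No sequences were used here.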

Additional observations from a re-analysis of the deposited data

How the results depend on the processing

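The 9 rises and 2 falls among the members were called in the same 11 transcript clusters under every alternative except a pair of stricter tests, and AGPAT2 joined them without high density replicate 3. With the Welch version of the methods' t-test 5 members were called higher and 0 lower, 9 and 3 of the further genes, and 838 transcript clusters in all (main counts 9, 2, 17, 5 and 2005). With limma's treat, which tests against the fold change threshold itself, these were 3, 1, 4, 3 and 529. Of the related pairs, 3 moved apart beyond a fold of 2 in place of 1.5. With each culture left out in turn, 9 to 10 members were called higher and 2 lower, 14 to 16 and 5 to 6 of the further genes, 7 to 9 pairs moved apart and 1848 to 2434 transcript clusters were called. With the replicate block the 11 members and 2020 transcript clusters were called, and the block changed no call named here.

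Genes near 0 changed sign with the scaling or with a culture, and none of them was called. After shifting the arrays to 1 median the changes were SLC27A1, at −0.0046, SLC27A4, at −0.024, ACACB, at −0.023, and PPARD, at −0.030. A second quantile normalization gave ACACB −0.021 and DGAT1 0.0061, and array weights gave DGAT1 0.015 and DGAT2 0.065. With each culture left out in turn the changes were between −0.011 and 0.11 for SLC27A1, −0.00078 and 0.033 for SLC27A4, −0.039 and 0.069 for ACACB, −0.064 and 0.037 for DGAT1, −0.078 and 0.10 for DGAT2, −0.19 and 0.079 for ACADL, and −0.020 and 0.034 for PPARD. Signals at or below background limit 6 members and the size of the LIPE rise.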
